A study of Mus musculus with 42 samples.

Results

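The genes described here are 8 Toll-like receptor genes (Tlr1, Tlr2, Tlr3, Tlr4, Tlr6, Tlr7, Tlr9 and Tlr13) and the genes of the LPS co-receptors, Cd14 and Ly96 (which encodes MD-2). They were taken by symbol, 10 of 21897 protein-coding genes, by a rule that uses no measured value. They were followed in chromatin immunoprecipitation sequencing (ChIP-seq) libraries for RNA polymerase II (Pol II) and for H3K27ac, the acetylated histone H3 found at promoters and enhancers in use. The cells were bone marrow-derived macrophages (BMDM) of male C57Bl6/J mice aged 6 to 12 weeks, either wild type (WT) or lacking the nuclear receptor Nur77 (KO), whose gene is Nr4a1. KO mice came from crossing a loxP-flanked Nr4a1 line with CMV-Cre mice, so that every cell of the body lacks the receptor. The KO genotype is labelled "cre", although the article describes these mice as no longer carrying Cre, and the controls were WT littermates. Marrow from femurs and tibias was cultured for 7 days with L929-conditioned medium, which holds macrophage growth factor, and the macrophages were then left untreated or stimulated with 100 ng/ml lipopolysaccharide (LPS) for 1 or 18 h. For each antibody there were 3 libraries of each genotype at 0, 1 and 18 h, 18 in all, and 1 input library without antibody for each genotype and time.

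Toll-like receptors recognise conserved microbial molecules. At the cell surface, TLR4 binds LPS together with MD-2 after CD14 has delivered it, and TLR2 pairs with TLR1 or TLR6 to bind bacterial lipopeptides. TLR3, TLR7, TLR9 and TLR13 sit in endosomes and recognise nucleic acids: double-stranded RNA, single-stranded RNA, unmethylated CpG DNA and bacterial ribosomal RNA, respectively. On ligand binding the receptors recruit adaptor proteins, MyD88 or TRIF, which lead through IRAK and TRAF proteins to NF-kB, AP-1 and interferon regulatory factors. In macrophages these factors in turn act on genes of the receptors themselves, so LPS can change how the cell will meet a later microbe.

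All values are normalized tags: reads inside regions called in that library, which the authors scaled to a library of 10 M (10000000) reads. Pol II was summed over the gene body with 500 bp added at either end, and H3K27ac over the 2500 bp to either side of the gene start. Within a region the tags are taken as evenly spread, so a long region also lends a gene tags from its neighbours. A value within 500 bp of a start is likewise close to the mean density of the region there, whatever its width. Start values from regions of unlike width are therefore not measurements of the start alone. Sequencing depth was 21.7 to 36.1 M tags for Pol II, 13.5 to 31.1 M for H3K27ac in WT, 23.6 to 55.4 M for H3K27ac in KO and 25.6 to 45.3 M for input. The KO libraries of H3K27ac were thus the deeper ones (median 35.0 against 20.9 M), and the part of depth in the differences of this mark between the genotypes was not tested. Nr4a1 itself held 188 to 208 Pol II tags in WT and 70.2 to 87.8 in KO at 0 h, but 23.0 to 30.4 in WT and 33.5 to 39.0 in KO at 1 h, so Pol II over this gene separates the genotypes as labelled only at 0 h. All 8 macrophage markers (Adgre1, Itgam, Csf1r, Cd68, Mertk, Fcgr1, Lyz2 and Spi1) had Pol II in every group, whereas 13 to 16 of 19 markers of lymphocytes, neutrophils, dendritic, erythroid cells and fibroblasts were at 0 in every library of a group. The summed Pol II over these 19 genes went from 372 to 481 tags in resting WT cells to 1213 to 1422 after 1 h of LPS, with 494 to 588 after 18 h. KO held 466 to 495, 1220 to 1351 and 491 to 1044. At 1 h it lay mostly on Xcr1, a dendritic cell marker (262 ± 38.0 tags in WT at 0 h, 1249 ± 109 after 1 h), and its part in the changes of the members was not tested.

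Some libraries stand apart. Across 10438 genes, the H3K27ac library numbered 1 of KO at 1 h correlated at 0.978 to 0.980 with the WT libraries of 1 h and at 0.910 to 0.912 with the other KO libraries of 1 h. The H3K27ac library numbered 1 of KO at 18 h correlated at 0.913 to 0.914 with the other KO libraries of 18 h and at 0.906 to 0.908 with WT at 18 h, whereas the other two reached 0.993 with each other and 0.979 to 0.982 with WT at 18 h. The KO libraries 2 and 3 of 1 h, in turn, correlated at 0.991 with each other but at 0.903 to 0.905 with WT at 1 h, so which of the 3 KO libraries of 1 h stand apart depends on what they are set against. With resting libraries of both genotypes, KO libraries 2 and 3 of 1 h correlated at 0.868 to 0.876 and library 1 at 0.824 to 0.833. The KO library 1 of 18 h reached 0.904 to 0.905 with KO libraries 2 and 3 of 1 h. The KO libraries 2 and 3 of 18 h reached 0.849 to 0.865 with KO at 1 h. The H3K27ac differences between the genotypes at 1 h rest on libraries 2 and 3, and they are given also without the 2 KO libraries numbered 1 and without the libraries of each other number. In the Pol II libraries the median of all genes moved by -0.82 (log2) in WT and -0.62 in KO at 1 h of LPS, so a gene that keeps its value at 1 h moves up relative to most other genes.

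Promoter sequence was looked up to show which letters lie upstream of the members whose signal is described below. The RefSeq promoter table used here (build GRCm38.p6) matched 6 of the 10 members: Tlr1, Tlr2, Tlr3, Tlr6, Tlr9 and Tlr13, with a pair of starts each for Tlr1 and Tlr6. Tlr4, Tlr7, Cd14 and Ly96 are named only. The 250 bases before the start of each entry were searched on both strands. The motifs were the Nur77 response element NBRE (AAAGGTCA), AP-1 (TGANTCA) and PU.1 (GAGGAAGT). The interferon-stimulated response element ISRE (GAAA, any 2 bases, GAAA) and an NF-kB motif were searched as well. Of 32851 promoter entries of the same length, 1.34% held the NBRE, 6.75% AP-1, 2.98% the ISRE, 2.44% PU.1 and 7.25% NF-kB. No entry of a member held the NBRE letters. The stretches shown are those outside GENCODE exons, 5′ to 3′ on the gene's strand, with the match in capitals. Tlr2 (chr3:83841768-83841858, minus strand, ending 1 base before the GENCODE gene) holds a pair of overlapping NF-kB matches. Tlr1 (chr5:64933564-64933808, minus strand) holds PU.1 and Tlr9 (chr9:106222348-106222597, plus strand) AP-1. Tlr6 (chr5:64959167-64959416, minus strand, within an intron, its last base 930 bp inside the GENCODE gene) holds a pair of overlapping ISRE matches. The other entry of Tlr1, 864 bp inside the GENCODE gene, and that of Tlr6, 49 bp inside it, held none of these letters and are not shown. Tlr13 (chrX:106143025-106143203, plus strand) is shown as a promoter with no match among these letters.
Tlr2: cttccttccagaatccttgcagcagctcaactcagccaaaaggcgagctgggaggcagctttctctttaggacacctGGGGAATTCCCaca
Tlr1: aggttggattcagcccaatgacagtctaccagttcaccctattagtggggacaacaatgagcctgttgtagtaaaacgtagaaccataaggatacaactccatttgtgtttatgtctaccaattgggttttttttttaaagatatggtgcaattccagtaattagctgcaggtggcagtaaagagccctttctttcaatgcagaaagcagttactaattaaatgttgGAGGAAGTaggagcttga
Tlr6: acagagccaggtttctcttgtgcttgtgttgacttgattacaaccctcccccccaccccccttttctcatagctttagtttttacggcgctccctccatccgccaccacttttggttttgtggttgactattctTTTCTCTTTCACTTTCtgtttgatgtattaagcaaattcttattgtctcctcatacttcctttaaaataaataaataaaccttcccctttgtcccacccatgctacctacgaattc
Tlr9: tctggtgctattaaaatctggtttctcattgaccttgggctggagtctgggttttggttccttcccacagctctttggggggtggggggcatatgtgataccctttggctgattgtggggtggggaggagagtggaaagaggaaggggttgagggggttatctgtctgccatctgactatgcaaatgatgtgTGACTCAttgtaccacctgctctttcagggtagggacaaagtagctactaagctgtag
Tlr13: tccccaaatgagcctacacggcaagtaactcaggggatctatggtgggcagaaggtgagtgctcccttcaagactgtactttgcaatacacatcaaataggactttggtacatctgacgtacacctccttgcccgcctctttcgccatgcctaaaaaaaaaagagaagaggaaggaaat

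The NF-kB matches of Tlr2 lie 173 to 163 bases before the start of its promoter entry and the AP-1 match of Tlr9 58 to 52 bases before its own. The RefSeq genes of Tlr2 and Tlr1 reach further upstream than these entry starts, to 83841824 and 64933600. Their matches therefore lie inside the RefSeq genes. The RefSeq promoter of Tlr3 also held an NF-kB match, 211 to 202 bases before the start, in a promoter that overlaps an annotated exon and is not shown. A match describes letters in these windows and is no measured binding site.

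The first question was how LPS changed Pol II over the receptor genes in WT cells. At 1 h Pol II rose over Tlr2, Ly96, Cd14, Tlr1 and Tlr6 and fell over Tlr4 and Tlr13: 7 of 10 members were called, against 87.0% of 13240 genes tested (18.6% called higher and 68.4% lower). At 18 h it was above the resting level over Tlr3, Ly96, Tlr6 and Tlr9 and below it over Cd14, Tlr4, Tlr2 and Tlr1: 8 of 10, against 66.6% of 13359 genes (33.3% in each direction). The share of members called at each time is not far from that of all genes. The median change over the members was 0.17 at 1 h and -0.11 at 18 h, beside -0.82 and -0.00 over all genes. Both comparisons use the same 0 h libraries. Changes are given as log2 of tags plus 10, with the standard error (SE) of limma's fit over all 18 libraries (n = 3 per group) and its Benjamini-Hochberg adjusted p over all genes, called below 0.05. On this scale the change of a gene with few tags is understated. Fewer cells carrying Pol II on a gene and less Pol II per cell cannot be told apart.

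**Figure D1:**
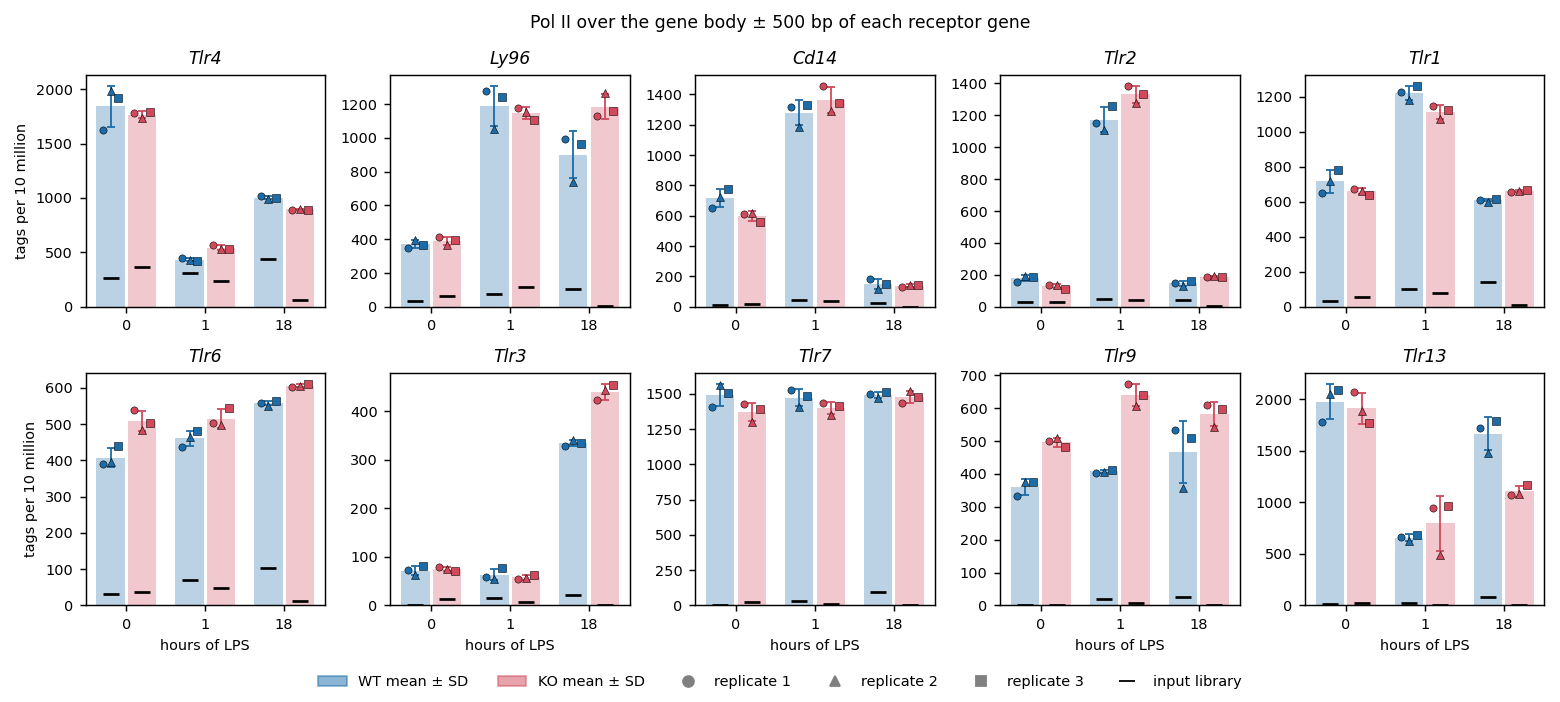
Pol II over each member, in normalized tags per 10 M (y axis from 0, a separate scale in each panel), at 0, 1 and 18 h of LPS. Bars give the mean of WT and KO with the SD of 3 libraries, points the single libraries by number, and the black dash the input library of that genotype and time; Tlr2 stands high in all 6 libraries at 1 h, Tlr3 in all 6 at 18 h, and Tlr7 stays level.

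Among the genes of the LPS receptor complex, the receptor and its partners moved in opposite directions at 1 h, while at 18 h Tlr4 and Cd14 were both below rest. Tlr4 (chr4:66827584-66930284, plus strand) held 1622, 1982 and 1918 Pol II tags in the 3 WT libraries at 0 h, 452, 432 and 418 at 1 h and 1018, 988 and 999 after 18 h. No library of 1 h reaches the lowest of 18 h, and none of 18 h the lowest of 0 h. The change was -2.05 ± 0.07 at 1 h (adjusted p = 1.2e-14), 4.15-fold lower, and -0.87 ± 0.07 at 18 h (adjusted p = 3.6e-09). The GENCODE gene spans 102.7 kb because of a long annotated transcript, whereas the RefSeq gene spans 19.0 kb. Over the RefSeq span alone WT held 1132, 1259 and 1196 tags at 0 h, 403, 388 and 403 at 1 h and 760.0, 752 and 771 after 18 h, so the fall was also present there, at -1.56 at 1 h and -0.64 at 18 h. At the start of Tlr4 (500 bp to either side) it was smaller at 1 h, -0.24 (adjusted p = 0.0055), and -0.54 at 18 h (adjusted p = 8.1e-06). The region with most of the Tlr4 tags measured 29.4 to 33.8 kb at 0 h and 5.53 to 6.91 kb at 1 h in WT. The 1 h change at the start thus compares regions of unlike width. The input library of WT at 1 h held 311 tags over the GENCODE span, close to the 418 to 452 of the ChIP libraries, so the 1 h level of Tlr4 is not far above its input.

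Cd14 (chr18:36725067-36726798, minus strand), the LPS-binding co-receptor, rose and then fell below its resting level. Its WT libraries held 653, 722 and 777 tags at 0 h, 1318, 1185 and 1332 at 1 h and 180.0, 119 and 149 after 18 h, with no overlap among the 3 times. The change was 0.83 ± 0.11 at 1 h (adjusted p = 2.3e-06) and -2.20 ± 0.11 at 18 h (adjusted p = 1.1e-11), a fall of 4.61-fold. From 1 to 18 h it dropped by 3.03 on the log2 scale, 8.17-fold. The Pol II region over this short gene measured 5.81 to 12.2 kb, of which 22.5% to 47.0% lay inside the window, and it reached no other protein-coding gene.

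Ly96 (chr1:16688051-16709611, plus strand), whose product MD-2 forms the LPS pocket with TLR4, rose at 1 h and remained high. WT libraries held 347, 394 and 367 tags at 0 h, 1275, 1053 and 1241 at 1 h and 995, 739.9 and 965 after 18 h. All libraries after LPS lie above all resting ones, while those of 18 h lie below those of 1 h. The change was 1.66 ± 0.10 at 1 h (adjusted p = 6.9e-11, 3.16-fold) and 1.25 ± 0.10 at 18 h (adjusted p = 6.8e-09). Without regions that overlap an input region, Ly96 turned to a fall at both times, with the values given in the last section. Regions covered 43.8% of the Ly96 window at 0 h and 96.8% at 1 h, and the tags per covered kb rose from 37.4 to 54.4. At the start of Ly96 alone no change was called at 1 h (0.13, adjusted p = 0.46), whereas at 18 h it was 0.65 (adjusted p = 0.0022). The region with most of the Ly96 tags measured 5.85 to 7.21 kb at 0 h, 14.3 to 23.6 kb at 1 h and 7.01 to 12.5 kb at 18 h in WT.

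The genes of the lipopeptide receptors showed the sharpest single rise. Tlr2 (chr3:83836272-83841767, minus strand), the shared subunit, held 157, 194 and 188 tags at 0 h, 1149, 1110.1 and 1259 at 1 h and 148, 131 and 160.1 after 18 h in WT. Every 1 h library stands far above all others, while the 0 and 18 h libraries overlap. The change was 2.65 ± 0.10 at 1 h (adjusted p = 5.4e-14, 6.26-fold), -2.92 ± 0.10 from 1 to 18 h and -0.28 ± 0.10 at 18 h against 0 h (adjusted p = 0.017). The last of these turned to 0.43 (adjusted p = 0.0023) when only the 500 bp to either side of the start were counted.

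Tlr1 and Tlr6, the alternative partners of TLR2, are neighbours on chromosome 5. Tlr1 (chr5:64924679-64933563, minus strand) held 647, 719.9 and 781 tags at 0 h, 1225, 1178 and 1261 at 1 h and 609, 601 and 613 after 18 h in WT, changes of 0.77 ± 0.06 (adjusted p = 4.7e-09) and -0.23 ± 0.06 (adjusted p = 0.0044). Tlr6 (chr5:64952031-64960097, minus strand) held 389, 395 and 439, 438, 463 and 481 and 559, 551 and 562, changes of 0.17 ± 0.07 (adjusted p = 0.023) and 0.44 ± 0.07 (adjusted p = 1.6e-05). For Tlr1 the 1 h libraries lie above all others, whereas for Tlr6 those of 0 and 1 h overlap. At 18 h, however, a single Pol II region of 152.9 to 154.9 kb in WT and 154.4 to 154.7 kb in KO spanned Tlr1, Tlr6 and Fam114a1 in all 6 libraries, with 6.38% to 6.47% of it in the Tlr1 window. Both genes therefore carry the same density at 18 h (61.5 ± 0.635 tags per kb in WT for each), and their values at that time are not separate measurements. The RefSeq gene of Tlr6 reaches further upstream, to beside the start of Fam114a1, although both of its promoter entries lie at or inside the GENCODE gene. Over the RefSeq span the 1 h change was -0.03 (adjusted p = 0.74) and the 18 h change 0.84 (adjusted p = 1.4e-07), so the small 1 h rise of Tlr6 turned with the gene model. At the GENCODE start of Tlr6 alone the 18 h change was -0.02 (adjusted p = 0.91). The 1 h rise of Tlr6 was not called without the libraries numbered 1 or 2 (adjusted p = 0.06 and 0.18), the 18 h fall of Tlr1 without 2 or 3 (0.074 and 0.085) and that of Tlr2 without 2 (0.31).

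Of the endosomal receptors, Tlr3 rose late, Tlr13 fell early and Tlr7 did not pass the test in any comparison. Tlr3 (chr8:45395665-45411080, minus strand) held 72.4, 62.0 and 80.9 tags at 0 h, 58.3, 55.0 and 76.2 at 1 h and 329, 341 and 334 after 18 h in WT. The 0 and 1 h libraries overlap and all 18 h libraries lie at least 4 times as high. The change at 18 h was 2.08 ± 0.11 (adjusted p = 3.4e-11, 4.24-fold), and at 1 h -0.16 ± 0.11 (adjusted p = 0.18). The part of the Tlr3 window inside a called region grew from 11.9% to 63.8% in WT, while the density inside it went from 37.1 ± 4.4 to 32.1 ± 2.5 tags per kb (SD, n = 3), so the gain in tags went with more of the gene being covered rather than with a higher density. At the start of Tlr3 alone the change was smaller at 18 h, 0.83 (adjusted p = 0.0004), and called at 1 h, -0.59 (adjusted p = 0.0037). The antisense gene Gm45542 overlaps Tlr3, and the tags carry no strand.

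Tlr13 (chrX:106143204-106160493, plus strand) held 1779.5, 2052 and 2095 tags at 0 h, 659.7, 621 and 688 at 1 h and 1726, 1484 and 1787 after 18 h in WT. All 1 h libraries are below the others, and those of 18 h partly overlap those of 0 h. The 1 h change was -1.57 ± 0.17 (adjusted p = 2.1e-07, 2.97-fold lower), followed by 1.33 ± 0.17 from 1 to 18 h (adjusted p = 1.8e-06), and 18 h against 0 h was not called (-0.25 ± 0.17, adjusted p = 0.23). Without regions that overlap an input region, both called changes of Tlr13 turned, with the values given in the last section.

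Tlr7 (chrX:167304929-167330558, minus strand) held 1298 to 1559 tags over all 18 libraries. Its WT changes were -0.02 ± 0.06 at 1 h (95% interval -0.14 to 0.10) and 0.00 ± 0.06 at 18 h (-0.11 to 0.12). Centred on the median of all genes, however, the 1 h value is 0.78 (adjusted p = 8.8e-11), and with quantile normalization -0.31, so the direction of Tlr7 relative to other genes depends on the scaling. Tlr9 (chr9:106222598-106226883, plus strand) held 333, 376 and 374 tags at 0 h, 402, 407 and 413 at 1 h and 533, 358 and 509.6 after 18 h in WT, with 0.34 ± 0.11 at 18 h (adjusted p = 0.011). In all 18 libraries its tags came from 1 region that also covered Alas1, the first enzyme of heme synthesis, with 7.48% to 18.5% of the region inside the Tlr9 window. At 18 h it reached Twf2 as well, and in the WT library with the lowest value it measured 70.6 kb. The Pol II values of Tlr9 therefore cannot be told apart from those of Alas1. The 18 h rise of Tlr9 was not called without the libraries numbered 1 (adjusted p = 0.28) or 3 (0.14).

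**Figure D2:**
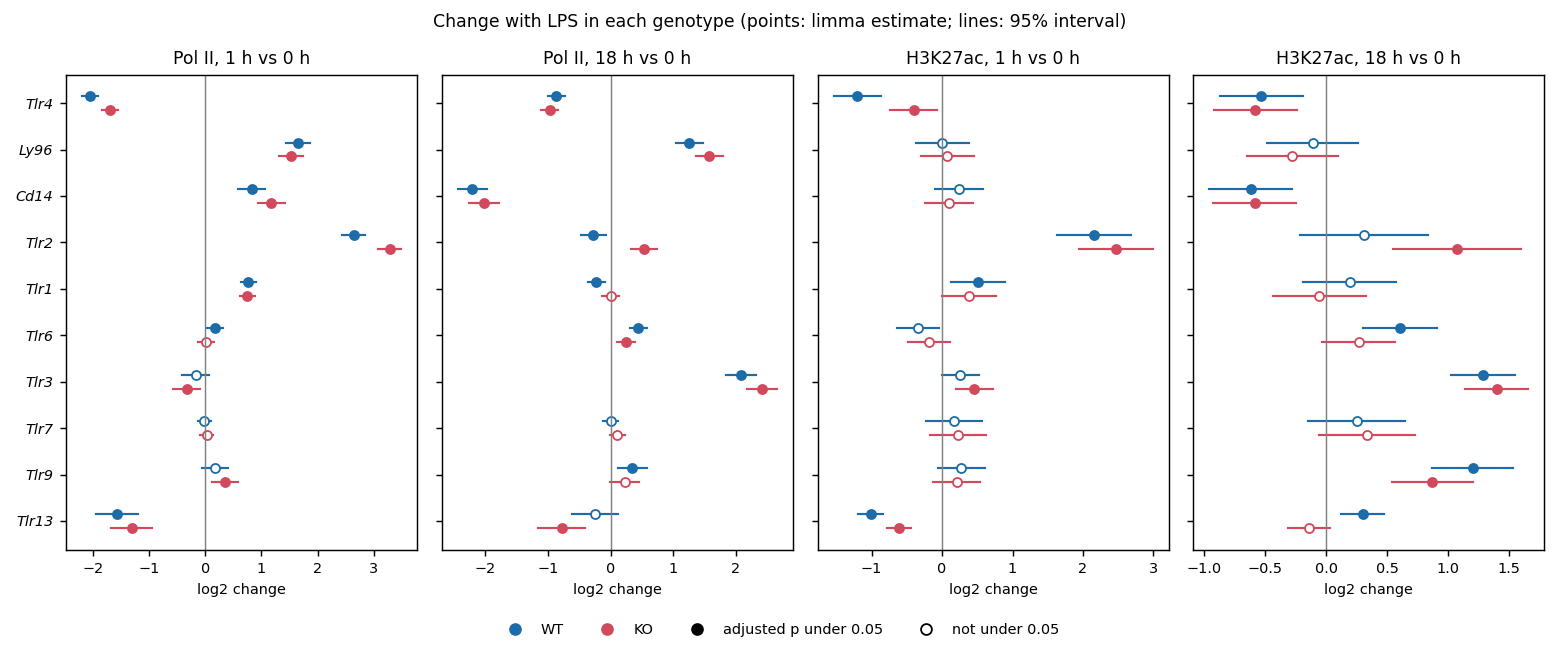
Change with LPS at 1 and 18 h against 0 h (x axis, log2 of tags plus 10, scales differ between panels) for each member, for Pol II and for H3K27ac. Points give limma's estimate in WT (blue) and KO (red), lines its 95% interval, and filled points an adjusted p below 0.05; Tlr2 lies farthest right at 1 h for both measures, and Tlr4 and Tlr13 to the left.

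Per kb of the GENCODE gene, the resting WT level was highest over Cd14, 263 ± 22.7 tags per kb (SD, n = 3), followed by Tlr13 with 108 ± 9.35. Tlr1 and Tlr9 (72.4 ± 6.78 and 68.3 ± 4.65) did not differ beyond their spread, and Tlr7 stood at 56.0 ± 2.86, Tlr6 at 45.0 ± 3.03 and Tlr2 at 27.6 ± 3.06. Ly96 held 16.4 ± 1.04 and Tlr3 was lowest with 4.37 ± 0.577. The level of Tlr4 depended on the gene model: 17.8 ± 1.85 tags per kb over the long GENCODE span, next to Ly96, but 59.7 ± 3.17 over the RefSeq span, next to Tlr7 (55.6 ± 3.51 by RefSeq). At 1 h the order of the first members was Cd14 (468 ± 29.7), Tlr2 (181 ± 11.9) and Tlr1 (124 ± 4.20) with either model. Tlr4 then held 4.19 ± 0.163 over the GENCODE span and 19.9 ± 0.435 over the RefSeq span, and Tlr3 3.85 ± 0.695. These orders are a description with no test.

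In KO cells, too, LPS changed Pol II over most members. At 1 h 8 of 10 members were called (82.9% of all genes) and at 18 h 7 (70.2%). At 1 h Pol II rose over Tlr2 (3.28 ± 0.10, 9.72-fold), Ly96 (1.53 ± 0.10), Cd14 (1.18 ± 0.11), Tlr1 (0.75 ± 0.06) and Tlr9 (0.36 ± 0.11) and fell over Tlr4 (-1.69 ± 0.07), Tlr13 (-1.31 ± 0.17) and Tlr3 (-0.33 ± 0.11, which centring on the median turns to 0.25). At 18 h it was higher over Tlr3 (2.41 ± 0.11, 5.31-fold), Ly96, Tlr2 (0.53 ± 0.10) and Tlr6 and lower over Cd14 (-2.02 ± 0.11), Tlr4 and Tlr13 (-0.78 ± 0.17). Tlr2 at 18 h was thus called higher than at rest in KO and lower in WT, a difference that is tested below as an interaction. Within 500 bp of the starts several of these KO changes were not called: Tlr4 (-0.12, adjusted p = 0.14) and Ly96 (-0.17, adjusted p = 0.35) at 1 h, and Tlr3 (0.33, adjusted p = 0.11), Ly96 (0.23, adjusted p = 0.22) and Tlr6 (0.09, adjusted p = 0.64) at 18 h. In KO the 1 h change of Tlr3 was not called without the libraries numbered 1 or 2 (adjusted p = 0.19 and 0.066), that of Tlr9 without 1 or 3 (0.051 and 0.076), and the 18 h change of Tlr6 without 2 (0.076). One KO library of Tlr13 at 1 h stood apart (946, 489.9 and 961 tags): its region measured 89.7 kb and reached Atp7a, against 19.4 and 28.1 kb in the others. The KO comparisons share their 0 h libraries as well.

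H3K27ac at the starts was tested next, to see whether the mark changed with Pol II. In WT, 4 of 10 members were called at 1 h (54.7% of 11916 genes) and 6 at 18 h (50.1% of 11803). At 1 h the mark rose at Tlr2 and Tlr1 and fell at Tlr4 and Tlr13, and at 18 h it was higher at Tlr3, Tlr9, Tlr6 and Tlr13 and lower at Cd14 and Tlr4. The members' median was 0.21 at 1 h and 0.27 at 18 h, beside -0.05 and -0.03 over all genes.

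At Tlr2 the WT libraries held 196, 240.2 and 200.0 tags at 0 h, 907, 1006 and 1008 at 1 h and 278, 269 and 248 after 18 h, a change of 2.15 ± 0.25 at 1 h (adjusted p = 3.4e-06). Tlr1 followed with 569, 560.0 and 547, 758, 809 and 831 and 629, 655 and 635 tags at the same times, a change of 0.51 ± 0.18 at 1 h (adjusted p = 0.026). At both of these starts all 3 libraries of 1 h stood above rest, whereas at Tlr6, the other partner of TLR2, they stood below it (929, 953 and 824 against 1099.9, 1215 and 1113 tags), a change that was not called. At Tlr4 they held 946, 959.7 and 1028, 446, 411 and 401 and 688, 693 and 638, a change of -1.20 ± 0.16 at 1 h (adjusted p = 1.3e-05) and -0.53 ± 0.16 at 18 h. At Tlr13 they held 809, 868 and 852, 429, 404 and 403 and 1057, 1019.9 and 1043, -1.02 ± 0.08 at 1 h (adjusted p = 9.3e-08) and 0.30 ± 0.08 at 18 h (adjusted p = 0.0066). The rise at Tlr1 was not called within 1000 bp of the start (0.32, adjusted p = 0.13) or without the libraries numbered 2 (0.50, adjusted p = 0.15) or 3 (0.47, adjusted p = 0.19). The 18 h changes in WT were lost without the libraries numbered 2 at Tlr4 (adjusted p = 0.062) and Cd14 (0.077), and without those numbered 3 at Tlr4 (0.17), Tlr6 (0.055) and Tlr13 (0.1). At Tlr2, Tlr4 and Tlr13 the mark moved at 1 h in the direction of Pol II over the gene, and the groups of 0 and 1 h do not overlap. Tlr13 overshot its resting level at 18 h in all 3 libraries, whereas its Pol II did not. Its mark came from 1 region in every WT and KO library, 22.0 to 28.1 kb long, with 17.8% to 22.8% inside the window. The value is thus a mean over more than the start.

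The late rises were at Tlr3 (136, 131 and 152 tags at 0 h and 339, 357 and 371 at 18 h, 1.29 ± 0.12, adjusted p = 4.5e-07) and at Tlr9. At Tlr9 the WT libraries held 236, 243 and 266 tags at 0 h, 321, 303 and 283 at 1 h and 609.9, 580.5 and 564 after 18 h, 1.21 ± 0.16 (adjusted p = 1.2e-05). Unlike its Pol II value, the H3K27ac value of Tlr9 in WT came from regions of 3.07 to 6.89 kb that held no other gene. Cd14 fell to 550.3, 558 and 519 tags from 844, 824 and 846 (-0.62 ± 0.16, adjusted p = 0.0047), and its 1 h libraries (866, 1046 and 1088) came from regions of 44.4 to 54.5 kb that also covered Tmco6.

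At Ly96 and Tlr7 no H3K27ac change was called in WT within 2500 bp of the start. Within 1000 bp, however, Ly96 was called lower at 18 h in WT (-0.47, adjusted p = 0.037) and in KO (-0.67, adjusted p = 0.0046). Ly96 held 889, 903 and 817 tags at 0 h, 1044, 1016 and 623 at 1 h and 741, 1028 and 679 after 18 h (0.00 ± 0.17 at 1 h, 95% interval -0.37 to 0.38), although its Pol II rose 3.16-fold. Tlr6 at its GENCODE start changed by -0.34 ± 0.14 at 1 h (adjusted p = 0.054) and 0.61 ± 0.14 at 18 h (adjusted p = 0.0023). Within 1000 bp of that start its 1 h change was called (-0.53, adjusted p = 0.01). At the upstream end of the RefSeq gene of Tlr6, by contrast, WT held 152, 148 and 147 tags at 0 h, 301, 333 and 370.2 at 1 h and 208, 206 and 230.0 after 18 h, a rise of 1.11 at 1 h (adjusted p = 5.6e-06). This point lies beside the start of Fam114a1, so the mark there cannot be told apart from that of Fam114a1.

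**Figure D3:**
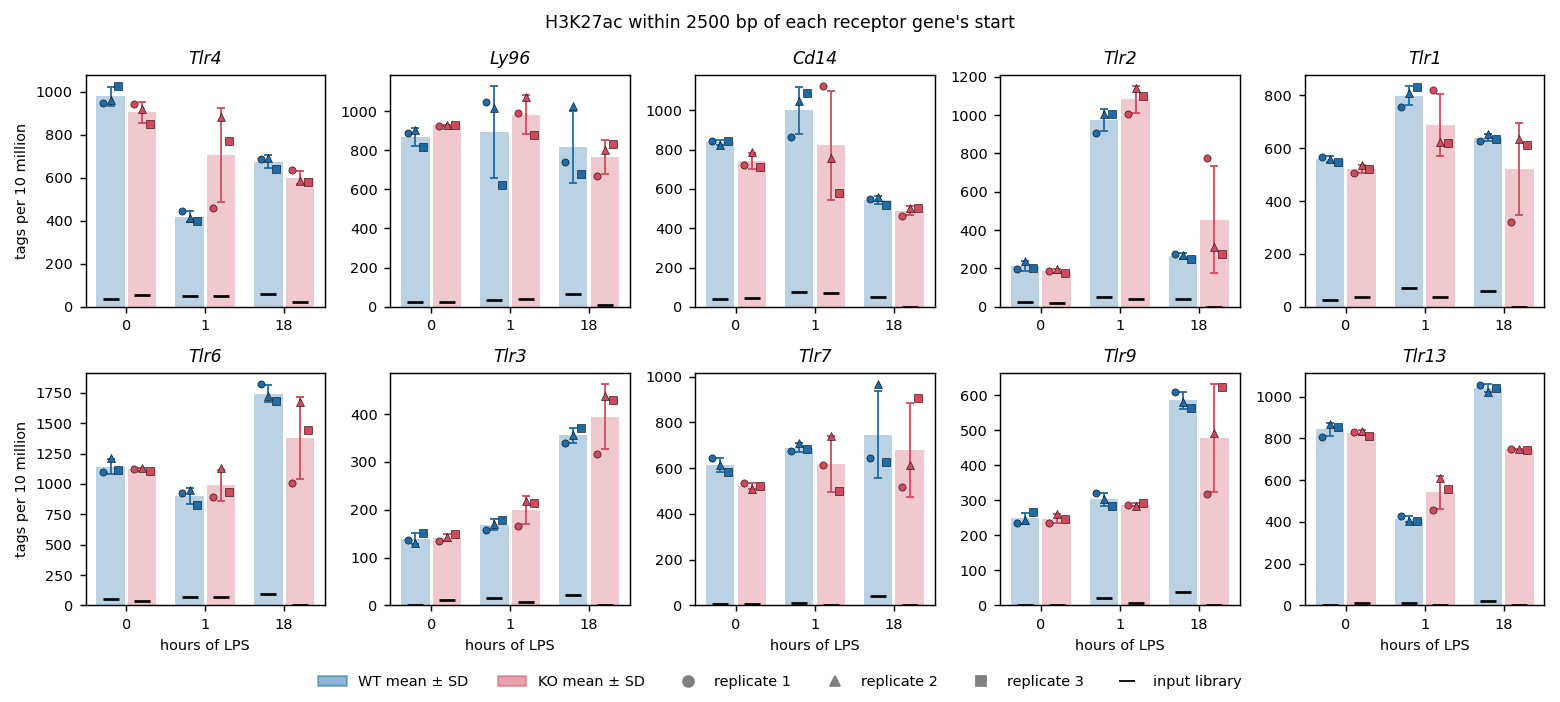
H3K27ac within 2500 bp of each member's start, in normalized tags per 10 M (y axis from 0, a separate scale in each panel), at 0, 1 and 18 h of LPS. Bars give the mean of WT and KO with the SD of 3 libraries, points the single libraries by number (circle 1, triangle 2, square 3), and the black dash the input; KO library 1 at 1 h lies with WT at Tlr4 (460 tags beside 401 to 446) and apart from the other KO libraries at 771 and 883.

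In KO with all libraries, 4 members were called at 1 h (47.0% of all genes) and 5 at 18 h (52.8%). Tlr2 rose by 2.46 ± 0.25 at 1 h and was still 1.08 ± 0.25 higher at 18 h, though 1 library (776 tags) stood apart from the others at 312 and 278. Without the KO libraries numbered 1 the 18 h change of Tlr2 was 0.62 (adjusted p = 1.9e-05) and 9 members were called at 18 h (68.2% of 11962 genes). The 1 h fall at Tlr4 in KO, -0.40 ± 0.16 (adjusted p = 0.048), was -0.13 (adjusted p = 0.14) without them, and the members called at 1 h (62.4% of 11956 genes) were then Tlr2 (2.52), Tlr3 (0.58), Tlr1 (0.25), Tlr9 (0.21) and Tlr13 (-0.50).

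The second question was whether the members differed between the genotypes at each time. For Pol II, KO differed from WT at 3 of 10 members at 0 h (7.10% of 13230 genes), 2 at 1 h (45.8% of 12079) and 5 at 18 h (21.1% of 12806). The members' medians were -0.05, 0.13 and 0.12, beside 0.04, 0.24 and -0.10 over all genes. Both members called at 1 h were higher in KO, as were 38.2% of all genes. The groups did not overlap at 4, 5 and 8 members at 0, 1 and 18 h, against 21.0%, 56.5% and 44.4% of all genes. All of these differences were below 2-fold. The summed Pol II over the 8 macrophage markers also differed at 1 h, with 33667 to 35670 tags in WT and 24846 to 25537 in KO, and at 18 h with 46312 to 48879 and 39414 to 42595. The input library of KO at 18 h held fewer tags than that of WT in every member's window, 0 to 63.7 against 22.1 to 441. Whether either has a part in the differences at the members was not tested.

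At 0 h Tlr2 held 135, 136 and 114 tags in KO against 157, 194 and 188 in WT, lower in all 3 KO libraries (-0.45 ± 0.10, adjusted p = 0.0064, range over the alternatives 0.00025 to 0.61). Tlr6 was higher in KO at 0 h with 539, 483 and 503 tags against 389, 395 and 439 (0.31 ± 0.07, adjusted p = 0.0074, range 0.0054 to 0.99). Leaving out the libraries of 1 number left 1 of the 3 calls each time: Tlr2 without number 1, Tlr9 without number 2 and Tlr6 without number 3. None of the 3 calls held at the gene starts alone.

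At 1 h Tlr4 retained more Pol II in KO, 567, 527 and 531 tags against 452, 432 and 418 (0.31 ± 0.07, adjusted p = 0.0013, range 0.00024 to 0.32). The groups do not overlap, and over the RefSeq span the difference was 0.32 (adjusted p = 0.00024). Most genes were higher in KO at 1 h, and centred on their median the difference at Tlr4 was 0.06 (adjusted p = 0.32). Tlr9 held more in KO at all times, 499, 509 and 482 tags against 333, 376 and 374 at 0 h, 673, 608 and 640.5 against 402, 407 and 413 at 1 h and 608, 542 and 597 against 533, 358 and 509.6 at 18 h. The differences were 0.45 ± 0.11 (adjusted p = 0.018), 0.64 ± 0.11 (adjusted p = 0.00025) and 0.33 ± 0.11 (adjusted p = 0.041), all from the region shared with Alas1. At 1 h Tlr4 and Tlr9 were called whichever library number was left out.

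At 18 h Tlr3 held 422, 444 and 454 tags in KO against 329, 341 and 334 (0.38 ± 0.11, adjusted p = 0.024), Ly96 1129.5, 1268 and 1159 against 995, 739.9 and 965 (0.40 ± 0.10, adjusted p = 0.0085) and Tlr2 189, 193 and 185 against 148, 131 and 160.1 (0.35 ± 0.10, adjusted p = 0.014). Tlr13 was lower in KO, 1073, 1080.2 and 1167 against 1726, 1484 and 1787 (-0.58 ± 0.17, adjusted p = 0.025, range 0.003 to 0.17). In each of these the groups do not overlap. The Tlr13 tags came from a region of 41.0 to 49.9 kb in WT and 37.5 to 40.8 kb in KO. Of it 36.7% to 44.6% lay inside the window in WT and 44.8% to 48.8% in KO. It reached Atp7a in 2 WT libraries and 1 KO library. At the starts alone no member was called at 18 h, and there Ly96, Tlr2 and Tlr3 lay on the other side of 0 (-0.27, -0.19 and -0.25). The region with most tags was wider in KO, at 9.20 to 9.77 kb against 3.64 to 3.93 in WT for Tlr2. It measured 13.48 to 15.95 kb against 7.01 to 12.49 for Ly96 and 6.98 to 8.44 kb against 3.55 to 5.96 for Tlr3. The part of region width in these start values was not tested. With the libraries of 1 number left out 1 call remained each time, Ly96, Tlr13 or Tlr2. Inside called regions the 18 h density was 31.2 ± 0.945 tags per kb in KO and 32.1 ± 2.48 in WT for Tlr3 (SD, n = 3). For Tlr2 it was 29.1 ± 0.590 and 30.9 ± 3.50, and for Ly96 57.9 ± 0.641 and 52.6 ± 6.76. The covered share of the window was 85.9% in KO and 63.8% in WT for Tlr3. It was 100% and 72.9% for Tlr2, and 90.7% and 75.8% for Ly96.

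Whether LPS acted differently on the genotypes was tested as an interaction, subtracting the WT response from the KO response. It was called for Tlr2 and Tlr4 at 1 h (18.5% of 13426 genes) and for Tlr2 at 18 h (14.8% of 13566). For Tlr2 it was 0.64 ± 0.14 at 1 h (adjusted p = 0.004, range 0.0013 to 0.27) and 0.81 ± 0.14 at 18 h (adjusted p = 0.00063, range 9.6e-06 to 0.89), the KO libraries lying below WT at 0 h and above it at 18 h. Within 500 bp of the Tlr2 start the interaction was 0.30 at 1 h (adjusted p = 0.27) and -0.06 at 18 h (adjusted p = 0.89). For Tlr4 it was 0.37 ± 0.09 at 1 h (adjusted p = 0.013, range 0.0066 to 0.55), the fall being smaller in KO. Over the RefSeq span of Tlr4 the 1 h interaction was 0.20 (adjusted p = 0.081) and centred on the median of all genes 0.14 (adjusted p = 0.16).

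**Figure D4:**
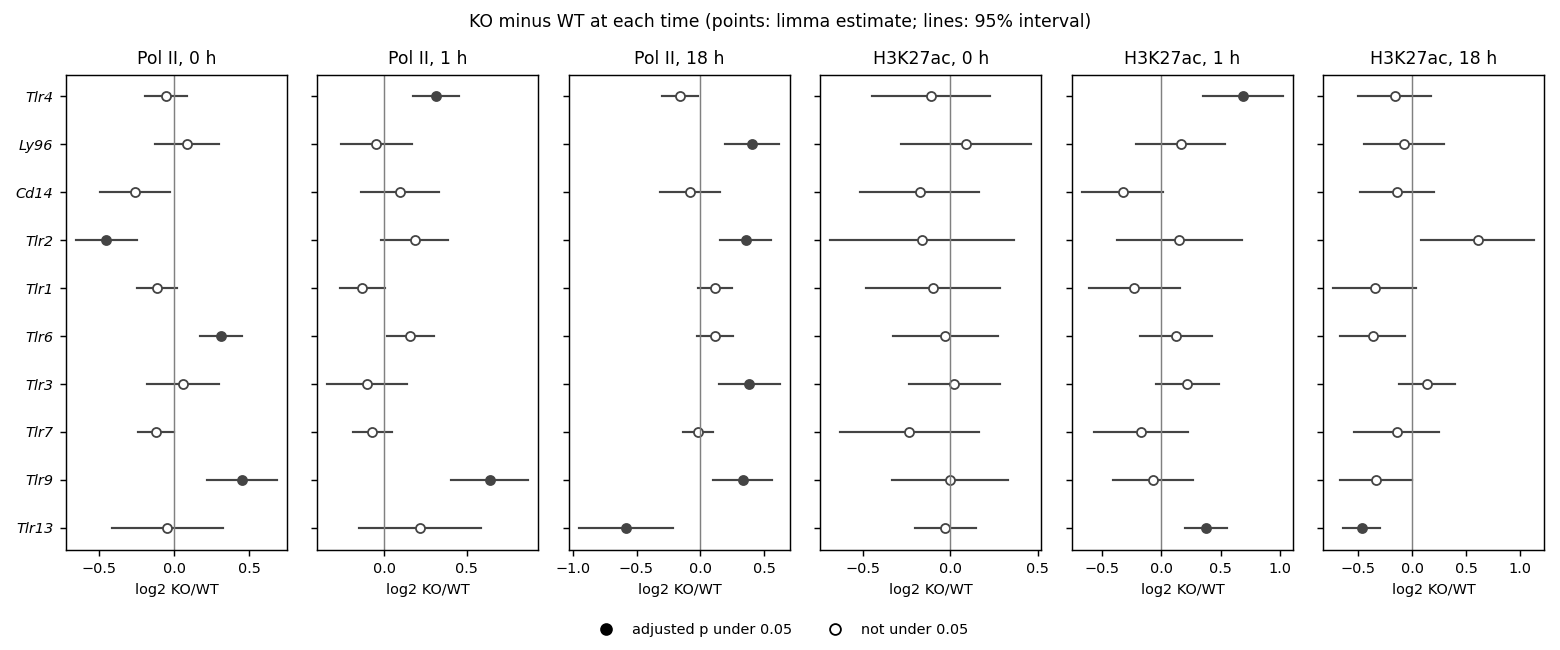
Difference between KO and WT at 0, 1 and 18 h for each member (x axis, log2 of tags plus 10, KO minus WT), for Pol II and H3K27ac. Points give limma's estimate, lines its 95% interval and filled points an adjusted p below 0.05; for Pol II the filled points are Tlr2, Tlr6 and Tlr9 at 0 h, Tlr4 and Tlr9 at 1 h, and Ly96, Tlr2, Tlr3, Tlr9 and Tlr13 at 18 h.

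For H3K27ac, limma called no member between the genotypes at 0 h, with 0 members at an unadjusted p below 0.05 (0.880% of 11817 genes were called). At 1 h Tlr4 and Tlr13 were higher in KO (18.4% of 11829 genes), and at 18 h Tlr13 was lower (3.33% of 11465). Tlr4 held 460.1, 883 and 771 tags in KO at 1 h against 446, 411 and 401 in WT (0.69 ± 0.16, adjusted p = 0.012), and 0.96 (adjusted p = 8e-08) without the KO libraries numbered 1. Without the libraries numbered 2 in all groups it was 0.49 (adjusted p = 0.43) and without those numbered 3 it was 0.56 (adjusted p = 0.35), neither of them called. Tlr13 held 457, 609.8 and 556 against 429, 404 and 403 at 1 h (0.37 ± 0.08, adjusted p = 0.009) and 748, 750.5 and 744 against 1057, 1019.9 and 1043 at 18 h (-0.47 ± 0.08, adjusted p = 0.0045). Without the libraries numbered 2 the difference at Tlr13 was 0.27 at 1 h (adjusted p = 0.42) and -0.49 at 18 h (adjusted p = 0.14), and without those numbered 3 it was 0.34 (adjusted p = 0.33) and -0.47 (adjusted p = 0.2), and neither was called. Without number 2 or 3, 0.337% and 0.253% of all genes were called at 1 h, and 0.496% and 0.460% at 18 h. At 18 h the 3 KO libraries of Tlr13 lie close together, the library numbered 1 included, and all below WT. Pol II over Tlr13 was lower in KO at 18 h as well.

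Without the 2 KO libraries numbered 1, 5 members differed at 1 h: Tlr4, Tlr13 (0.49, adjusted p = 3e-06) and Tlr3 (0.34, adjusted p = 0.00087) were higher in KO, and Cd14 (-0.58, adjusted p = 0.00026) and Tlr1 (-0.36, adjusted p = 2.9e-05) lower. At that setting 59.9% of 11786 genes were called at 1 h. At 18 h 2 differed, Tlr13 (-0.47, adjusted p = 6.3e-05) and Tlr3 (0.28, adjusted p = 0.015), beside 19.1% of 11364 genes. The H3K27ac interaction called no member with all libraries (2 at an unadjusted p below 0.05 at each time, 0.642% and 0.646% of all genes called). Without the 2 libraries it called 6 at 1 h (47.9% of 12139 genes), among them Tlr4 (1.07, adjusted p = 1.3e-06) and Tlr2 (0.36, adjusted p = 0.019), and Tlr13 at 18 h (-0.44, adjusted p = 0.0021; 14.7% of 12044 genes).

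H3K27ac around the members was read from 77 regions, merged over the libraries, within 50 kb of a member's start. These are not enhancers alone. Regions over the members' own starts and over the starts of other genes, such as Fam114a1, Alas1 and Eloc, are among them. A region near a gene need not act on it, and 57 of the 77 overlap a region also called in an input library. In WT 22 of 56 regions tested changed more than 2-fold at 1 h (12 higher and 10 lower, 40.9% of all regions called) and 24 of 58 at 18 h (14 higher and 10 lower, 39.0%). Near Ly96, chr1:16667900-16676281, 16.0 kb before the start and over the gene body of Tmem70, was listed at 0 in all WT and KO libraries of 0 h. At 1 h it held 266, 371 and 276 tags in WT and 229, 82.1 and 82.8 in KO, and at 18 h 76.5, 88.2 and 78.1 and 40.6, 88.8 and 73.8. The region thus appeared with LPS in both genotypes and was lower in KO at 1 h (-1.29 ± 0.30, adjusted p = 0.0067), with KO library 1 nearest to WT, and by -1.75 (adjusted p = 5.7e-08) without the KO libraries numbered 1. A region 45.5 kb before Ly96, in Eloc (chr1:16640398-16644705), went the other way, with 228, 240.5 and 233 tags at 0 h, 19.6, 36.7 and 28.0 at 1 h and 11.0, 19.0 and 26.3 after 18 h.

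Beside Tlr1 and Tlr6, chr5:64895397-64914571, centred 28.6 kb past the Tlr1 start, gained the mark in steps. It held 123, 118 and 116 tags in resting WT cells, 404, 432 and 383 at 1 h and 1676, 1681 and 1641 after 18 h, 1.69 ± 0.13 and 3.70 ± 0.13 (adjusted p = 4.5e-12). The KO libraries held 90.7, 93.2 and 88.3, 279, 167 and 189.5 and 1481, 1785 and 1645 at the same times. Without the KO libraries numbered 1 it was called lower in KO at 1 h (-1.15, adjusted p = 1.5e-09), whereas with all libraries the difference of -0.94 (adjusted p = 0.00023) was under the 2-fold that a call needs. It lies inside the long Pol II region seen at 18 h. Upstream of Tlr2, chr3:83874146-83878153, 34.4 kb before the start, held 13.5, 13.2 and 0 tags at 0 h, 107, 108 and 99.9 at 1 h and 39.6, 27.4 and 35.6 after 18 h, following the early rise of the gene.

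Around Tlr4 a fall of the mark at 1 h extended beyond the promoter. The region chr4:66840460-66859690, centred 22.5 kb past the start, held 888, 968 and 868 tags in resting WT cells, 349.6, 321 and 274 at 1 h and 353, 399 and 411 after 18 h (-1.50 ± 0.32 at 1 h, adjusted p = 0.0007). At chr4:66793440-66798388, 31.7 kb before the start, the change was -2.11 ± 0.35, and at chr4:66815625-66818305, 10.6 kb before it, -1.60 ± 0.22. Only at chr4:66860430-66862805, among the 4 regions around Tlr4 called at 1 h, did the mark rise (1.43 ± 0.27).

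Between the genotypes no region near a member was called by limma at 0 h (55 tested, 5 at an unadjusted p below 0.05, 1.86% of all regions called), 6 of 57 at 1 h (14.2%) and 1 of 55 at 18 h (3.87%). The 4 that were higher in KO at 1 h comprised 3 around Tlr4 and 1 near Tlr7, and the 2 lower ones lay near Ly96. At chr4:66815625-66818305 KO held 22.7, 45.2 and 51.5 tags at 1 h against 9.26, 11.8 and 7.90 in WT (1.29 ± 0.22, adjusted p = 0.00079), and at chr4:66840460-66859690 342, 1035 and 1032 against 349.6, 321 and 274 (1.17 ± 0.32, adjusted p = 0.015). The third, chr4:66793440-66798388, differed by 1.39 ± 0.35, the one near Tlr7 (chrX:167301072-167303550, 28.2 kb past the start) by 1.18 ± 0.31, and the further one near Ly96 (chr1:16649175-16652964, 37.0 kb before the start) by -1.04 ± 0.34. At the Tlr4 regions the KO library numbered 1 lay nearer to WT. Without the KO libraries numbered 1 the differences of the 3 Tlr4 regions were 1.57, 1.69 and 1.73 (adjusted p at most 0.00017), that near Tlr7 1.23 (adjusted p = 0.0021) and that of the further Ly96 region -1.26 (adjusted p = 0.0044). Without the libraries numbered 2 or 3 none of these was called. At 18 h the region called, 47.3 kb past the start of Ly96 (chr1:16734362-16736398), held 0, 17.7 and 20.4 tags in KO, while in all WT libraries it was at 0. These 3 KO libraries held 55.4, 31.3 and 33.4 M tags and the WT libraries 15.0, 16.6 and 31.1 M, and the part of depth in this call was not tested. Leaving out the libraries numbered 1 gave 19 regions at 1 h (30.9% of all regions), leaving out those numbered 2 or 3 gave 0 (1.99% and 2.45%), and leaving out only the KO libraries numbered 1 gave 16 (29.2%).

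**Figure D5:**
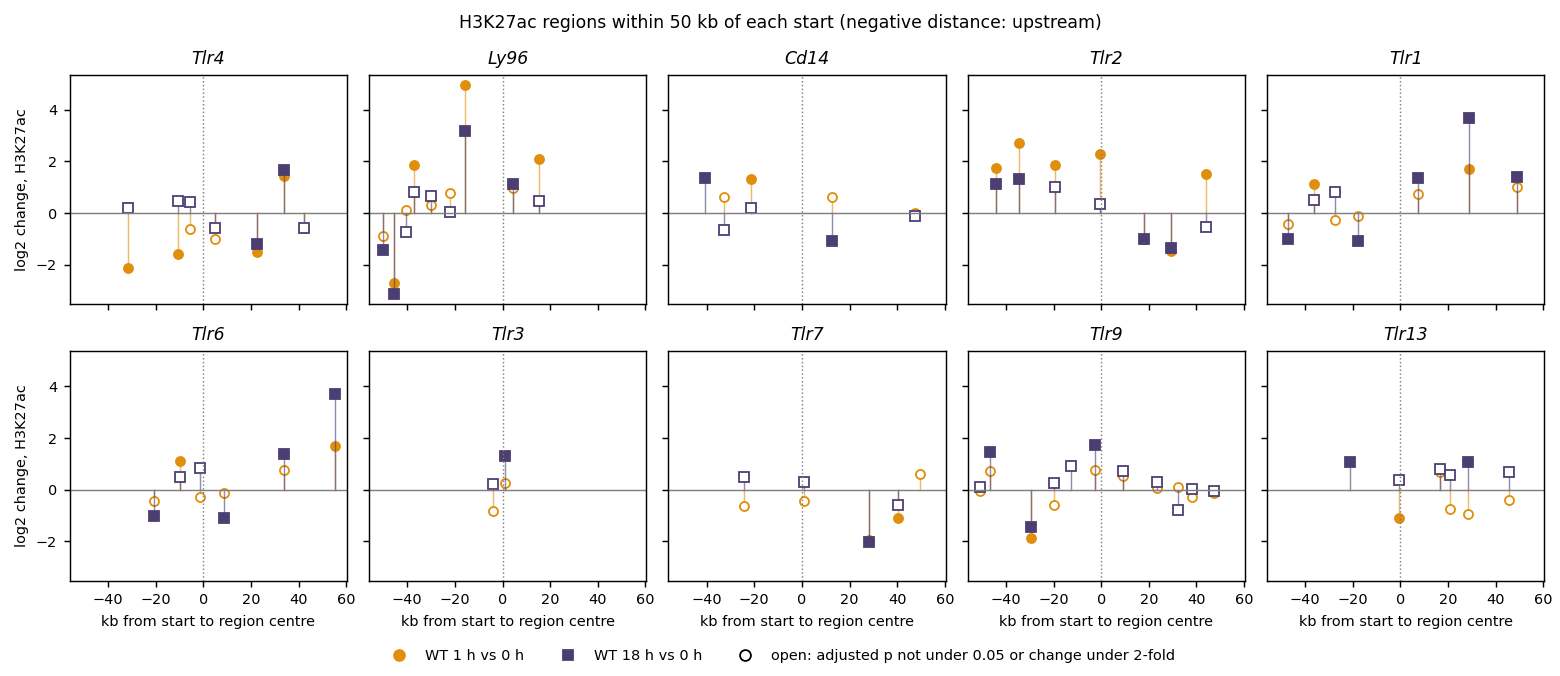
Change of H3K27ac with LPS in WT for regions that reach within 50 kb of each member's start (x axis, kb from the start to the centre of the region, negative upstream; y axis, log2 of tags plus 10), at 1 h (orange circles) and 18 h (purple squares) against 0 h. Open symbols were not called; a region 16.0 kb before Ly96, listed at 0 at 0 h, lies highest, and most called regions around Tlr4 lie below 0 at 1 h.

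Other genes of the pathway were read from lists of 12 receptor-side genes and 18 adaptors and kinases. On the receptor side, of 8 tested for Pol II in WT at 1 h, 1 rose and 6 fell, with a median of -1.88, beside 18.6% and 68.4% of all genes. Cd36, a lipid scavenger receptor that assists TLR2 with TLR6, went from 13726 ± 1128 tags to 1229 ± 128 (SD, n = 3; -3.47, adjusted p = 2.1e-17) and to 3313 ± 84 at 18 h. Ly86, which encodes the MD-1 partner of the TLR4 homologue Cd180, changed by -2.32, and the chaperones of Toll-like receptors Hsp90b1 and Cnpy3 by -2.34 and -2.67, all returning towards the resting value by 18 h. Cd180 itself rose (0.85), as did Cd14 and Ly96 among the members. Unc93b1, which carries the endosomal receptors out of the endoplasmic reticulum, did not pass at 1 h (-0.32, adjusted p = 0.097) and was 0.64 higher at 18 h (adjusted p = 0.0037).

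Between the genotypes the receptor side had 1 call of 8 tested at 0 h (higher in KO), 2 of 7 at 1 h (higher) and 2 of 9 at 18 h (1 in each direction), beside 7.10%, 45.8% and 21.1% of all genes. Cd36 at 1 h held 2494 ± 19 tags in KO against 1229 ± 128 in WT (1.02, adjusted p = 9.9e-09), with an interaction of 0.63 (adjusted p = 0.00036). Of the adaptors and kinases 9 rose and 8 fell in WT at 1 h, and 14 rose and 2 fell at 18 h, of 18 tested, beside 18.6% of all genes higher and 68.4% lower at 1 h and 33.3% each way at 18 h. Irak3, which restrains IRAK signalling, rose from 164 ± 9.0 to 529 ± 32 and 944 ± 16 tags, Tab2 by 2.08 at 1 h and Traf3 by 1.52, while Irak4 (-1.22) and Irak1 fell. Between the genotypes 11 of 17 adaptors and kinases were higher and 1 lower in KO at 1 h, against 38.2% of all genes higher and 7.53% lower. Tollip, an inhibitor of IRAK signalling, held 403 ± 16 tags in KO and 176 ± 10 in WT at 1 h (1.15, adjusted p = 2e-06).

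The genes whose Pol II followed each member most closely over the 18 libraries were named by Pearson's r of the log2 values, among 10650 genes found in all libraries, leaving out those within 100 kb. The libraries share times and genotypes, so r describes the pattern and carries no test. Tlr2 was most like Ell2 (0.993) and Gas7 (0.992), Tlr4 like Gpr65 (0.996) and Nudt1 (0.995), Tlr3 like Parp11 (0.995) and Kif5c (0.993), and Cd14 like Calcrl (0.994) and Actn1 (0.991). Tlr1 was most like Gm6377 (0.992) and Map3k5 (0.990), Ly96 like Tnfrsf8 (0.989) and Bcl2a1a (0.988, one of several near-identical copies), and Tlr13 like Ctns (0.965) and Kctd2 (0.960). For Tlr6 the highest values were 0.917 (Sipa1l1) and 0.897 (Cnih4), for Tlr9 0.892 (Btaf1) and 0.874 (Mid1), and for Tlr7, which hardly moved, 0.720 (Osm) and 0.691 (Mylpf). Among the members themselves Tlr1 and Tlr2 had an r of 0.974.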

How the data were processed

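ChIP-seq for Pol II and H3K27ac was analysed in 36 libraries with 6 inputs. The deposited values are signal: per the labels and the study's methods, reads passed through Skewer for trimming and HISAT2 (2.1.0) for alignment to mm10, duplicates were dropped, and the authors then called regions library by library in HOMER (histone style, without input), giving tags per 10 M reads. A gene outside all called regions is listed at 0.

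Tags were summed by overlap over GENCODE vM21 genes (21897 protein-coding, 54 with shared symbols left out). limma (3.58.1, R 4.3.3) with an intensity trend was fitted to log2(tags + 10) with 6 group means per antibody. A gene was tested when above 0 in at least 2 of 3 libraries of a compared group, with Benjamini-Hochberg adjustment over all genes tested, called below 0.05. Regions also needed a log2 change over 1. The scripts were tested on simulated data. Other scalings, pseudocounts of 1 and 50, windows, gene models (RefSeq) and left-out libraries were tried; the RefSeq gene model was chosen after seeing the data.

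No label says that replicates came from separate animals, so p-values measure the spread between these samples. The smallest groups hold 3 libraries and depth adds counting error that was not modelled. The members, the gene lists and the rules for naming genes (all members, called list genes, the 2 genes most like each member, and called regions) were chosen with earlier results of these data known, although the members' rule itself uses symbols only. The deleted part of Nr4a1 is not given in the sources used here, and the catalogue number of the Pol II antibody differs between the labels and the article.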

Additional observations from a re-analysis of the deposited data

Results flagged for a closer look

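The difference in the LPS response between the genotypes passed the test of the interaction itself in 3 cases, all for Pol II over whole genes: 2 of 10 members at 1 h (18.5% of all genes) and 1 of 10 at 18 h (14.8%). For Tlr2 it was 0.64 at 1 h and 0.81 at 18 h (log2, KO change minus WT change), with all 3 KO libraries below all WT libraries at 0 h and above them at 18 h. Without the libraries of 1 number the 1 h value had an adjusted p of 0.021, 0.066 or 0.056 and the 18 h value 0.0098, 0.034 or 0.02. Within 500 bp of the Tlr2 start neither was called (0.30, adjusted p = 0.27, and -0.06, adjusted p = 0.89). For Tlr4 it was 0.37 at 1 h, with an adjusted p of 0.0066, 0.21 or 0.16 without the libraries numbered 1, 2 or 3. It was not called over the RefSeq span of Tlr4 (0.20, adjusted p = 0.081), at the start (0.12, adjusted p = 0.55) or centred on the median of all genes (0.14, adjusted p = 0.16). All of these p-values come from limma with Benjamini-Hochberg adjustment.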

How the results depend on the processing

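Of 3209 values recomputed for single members under the alternatives, 2881 kept their direction and their side of the threshold, 100 kept the direction and were no longer called, 96 kept it and became called, 45 that were called in at least 1 of the fits turned, and 87 changed sign while called in neither. The turned values given here are the 45. No call changed with a common density floor, with genes found in all libraries compared, or with a pseudocount of 50. A gene is listed at 0 where no region was called, and what can be called moves with depth, which for H3K27ac ran from 13.5 to 31.1 M tags in WT and from 23.6 to 55.4 M in KO. The causes were not tested.

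Scaling moved the Pol II values relative to other genes. Centred on the median of all genes, 5 members were called between the genotypes at 1 h (37.0% of all genes), 4 in the interaction at 18 h (15.6%), and 2 regions between the genotypes at 18 h (4.41% of all regions). Centring moves all genes of a comparison by about the same amount, so its 9 turned values follow from the shift of the median by construction. They were, for 1 h against 0 h, Tlr3 in KO (0.25) and WT (0.63) and Tlr7 in WT (0.78), and for 18 h against 1 h Ly96 in KO (-0.43), Tlr6 in KO (-0.25) and WT (-0.60), Tlr7 in KO (-0.40) and WT (-0.84) and Tlr9 in WT (-0.70). With quantile normalization 6 members were called between the genotypes at 0 h (11.5%), 5 at 1 h (30.1%) and 3 in the interaction at 18 h (16.4%). The turned values were Tlr3 at 1 h in KO (0.54) and WT (0.94), Tlr7 at 1 h in KO (-0.20) and at 18 h in KO (-0.14) and WT (-0.37), Tlr1 at 18 h in KO (-0.20), and for 18 h against 1 h Tlr6 in KO (-0.040) and WT (-0.19) and Tlr9 in WT (-0.36).

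A start value is close to the mean density of the region over the start, so it follows how wide that region was called. With Pol II counted only within 500 bp of the start, 0 members were called between the genotypes at 0 h (2.84% of all genes) and 0 at 18 h (5.06%), and 0 in either interaction (3.67% and 2.50%). There the value turned for Tlr6 between the genotypes at 0 h (-0.0084), at 1 h in WT (-0.26) and at 18 h in WT (-0.023), for Ly96 between the genotypes at 18 h (-0.27), at 1 h in KO (-0.17) and for 18 h against 1 h in WT (0.52), for Tlr2 between the genotypes at 18 h (-0.19), at 18 h in WT (0.43) and in the 18 h interaction (-0.062), for Tlr3 between the genotypes at 18 h (-0.25), and for Tlr4 at 18 h against 1 h in KO (-0.65) and WT (-0.29). With RefSeq spans the interactions called 1 member at 1 h (18.7% of all genes) and 2 at 18 h (14.8%), and Tlr6 turned for H3K27ac at 1 h in KO (1.13) and WT (1.11) and for 18 h against 1 h in KO (-0.80) and WT (-0.62), and for Pol II at 1 h in WT (-0.031).

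Without regions that overlap an input region only 1 or 2 members could be tested for Pol II. Between the genotypes 0, 1 and 0 members were then called at 0, 1 and 18 h (3.50%, 14.9% and 9.03% of all genes). For LPS at 1 h, at 18 h and for 18 h against 1 h the calls were 1, 1 and 2 in WT (39.4% to 54.5%) but 0, 1 and 1 in KO (44.5% to 54.8%), and the interactions had 1 and 0 (3.47% and 4.29%). Ly96 turned at 1 h in KO (-0.49) and WT (-0.96) and at 18 h in KO (-0.58) and WT (-0.66), and Tlr13 at 1 h in WT (2.455), between the genotypes at 1 h (-2.455), for 18 h against 1 h in WT (-2.455) and in the 1 h interaction (-2.455). Within 20 kb of a start, 3 of 30 regions tested were called between the genotypes at 1 h (14.2% of all regions), 0 of 30 at 18 h (3.87%), and with LPS in WT 11 of 28 at 1 h (40.9%) and 12 of 30 at 18 h (39.0%).

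Leaving out the libraries of 1 number in turn gave, for Pol II, 1 to 1 member between the genotypes at 0 h (3.73% to 4.25% of all genes), 1 to 1 at 18 h (11.1% to 14.1%), 0 to 2 in the interaction at 1 h (4.86% to 16.3%) and 1 to 2 at 18 h (7.46% to 8.09%). For H3K27ac it gave 0 to 5 between the genotypes at 1 h (0.253% to 55.7% of all genes) and 0 to 1 at 18 h (0.460% to 12.5%), 3 to 7 with LPS in WT at 1 h (35.1% to 64.6%) and 3 to 7 at 18 h (30.2% to 60.8%), 2 to 4 in KO at 1 h (25.9% to 58.1%), 3 to 7 in KO at 18 h (32.9% to 64.7%) and 3 to 7 in KO for 18 h against 1 h (24.8% to 65.9%), and 0 to 4 and 0 to 1 in the interactions at 1 h (0% to 40.4%) and 18 h (0.0168% to 5.10%). For regions it gave 0 to 1 between the genotypes at 0 h (1.32% to 3.12% of all regions), 0 to 19 at 1 h (1.99% to 30.9%) and 0 to 1 at 18 h (1.85% to 4.78%). Tlr1 H3K27ac at 18 h in KO ranged from -0.21 to 0.23, turning without the libraries numbered 1. Without only the KO libraries numbered 1, H3K27ac calls were 5 and 2 between the genotypes at 1 and 18 h (59.9% and 19.1% of all genes), 8 in WT at 1 h (70.6%), 9 in KO at 18 h (68.2%) and 6 and 1 in the interactions (47.9% and 14.7%), 16 regions differed between the genotypes at 1 h (29.2% of all regions), and Tlr1 at 18 h in KO turned (0.25).

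The library numbers did not pair the samples: libraries of the same number in different groups deviated together with a median correlation of 0.012 for Pol II and -0.00043 for H3K27ac. With the replicate block, H3K27ac calls in WT at 1 h went from 4 to 6 (52.9% of all genes; Tlr3, 0.26, and Tlr6, -0.34, became called), Tlr4 at 1 h in KO (-0.40) was no longer called, and the other member calls were as without it.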
